A study of Bos taurus with 15 samples.

Results

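FIGLA and KPNA7 are genes known for their expression in oocytes. Both were followed in single oocytes taken from the dominant follicle (DF) of cattle, to ask how much mRNA of each the DF oocyte held as ovulation approached. The members were the rows of the deposited count table whose Ensembl identifier carries the symbol FIGLA or KPNA7 in the gene list published with the study, which gave 2 of 21218 genes, ENSBTAG00000008905 for FIGLA and ENSBTAG00000015737 for KPNA7. The gene list came from a comparison that included these oocytes, so the presence of a gene in it was not used as evidence here. In the RefSeq annotation of ARS-UCD2.0, a later build than the one used for the counts, FIGLA is a protein-coding gene with 2 transcripts between CLEC4F and ADD2, and KPNA7 is a protein-coding gene with 1 transcript between MYH16 and SMURF1. Neither overlapped another gene in that annotation.

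FIGLA is a basic helix-loop-helix transcription factor of the germ line. It pairs with E-proteins, binds E-box motifs in the promoters of the zona pellucida genes, and is needed in the mouse for primordial follicles to form. KPNA7 is the importin alpha of the oocyte and early embryo. Importin alpha proteins recognise nuclear localisation signals and, together with importin beta, carry their cargo through the nuclear pore, where Ran bound to GTP releases it. The oocyte of a preovulatory follicle has largely stopped transcription, so its mRNA levels are set mainly by storage, decay and the length of the poly(A) tail.

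The oocytes came from the dominant follicles of beef heifers whose oestrus had been synchronised with a GnRH analogue, an intravaginal progesterone device and a prostaglandin F2a analogue, and each oocyte came from its own animal. The first group (T1) held 6 oocytes taken 24 h ahead of ovulation. The others held 4 collected 19 to 23 h after oestrus was detected (T2) and 5 collected 2 h before ovulation (T3). A subgroup of animals received GnRH again. The methods give 19 to 23 h after oestrus and 2 h before ovulation for the same day, beside that subgroup. Whether T2 animals belonged to it, and how T2 and T3 were ordered in time, is not clear from them. The second GnRH dose and the time of collection cannot be told apart at T3, and the sample titles of T2 name hours before ovulation where the other labels name hours after oestrus, of which the latter was followed. The cumulus cells were removed by pipetting before freezing, and the libraries were made by Smart-seq2, which captures mRNA by its poly(A) tail, so that a change in tail length and a change in mRNA amount cannot be told apart. No other cell type was sequenced in these files, so the oocyte-specific expression of both genes was not tested.

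The quality-control list of the study holds 11 of the 15 oocytes, 5 from T1, 4 from T2 and 2 from T3, and these formed the main set. Not in that list were T3.1, T3.3 and T3.5 from T3 and T1.4 from T1. Total counts ranged from 824854 to 4894970 in the listed oocytes and from 175263 to 4894970 over all 15, with 8537 to 11273 genes counted in a listed oocyte and 2686 to 7433 in an unlisted one. The unlisted oocyte T3.1 stood apart, since OOSP2, an oocyte-secreted protein gene, reached 187987 CPM there (read counts scaled to a common library total) and 1897 to 15523 CPM in the listed oocytes. The unlisted T3.3, at 30913 CPM, also lay above the listed range and was kept where T3.1 was left out. The part of T3.1 in the results was not tested, and the level differences between time points over all 15 oocytes that include T3 are given with and without T3.1.

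FIGLA was counted in all 15 oocytes, but its level spanned a far wider range than that of KPNA7. Among the 11 listed oocytes, FIGLA ranged from 19.6 CPM in T2.1 to 3056 CPM in T1.2, a 156-fold range. KPNA7 went from 151 CPM in T3.4 to 1541 CPM in T2.1, a 10.2-fold range. The oocyte with the least FIGLA was the oocyte with the most KPNA7.

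At T1, FIGLA stood at 71.7, 3056, 731, 2648 and 565 CPM in T1.1, T1.2, T1.3, T1.5 and T1.6, and at 3512 CPM in the unlisted T1.4. At T2 it stood at 19.6, 384, 446 and 234 CPM in T2.1 to T2.4. At T3 the listed T3.2 and T3.4 held 1024 and 2445 CPM, and the unlisted T3.1, T3.3 and T3.5 held 1.61, 1899 and 508 CPM. No T2 oocyte exceeded 446 CPM, whereas all T1 oocytes but T1.1 and all T3 oocytes but T3.1 lay above that value.

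The low values rested on few reads. T2.1 gave 21 FIGLA counts, with an exact 95% interval of 12.1 to 30.0 CPM, and T3.1 gave 1 count, with an interval of 0.0408 to 8.97 CPM. The intervals cover counting error only, since the libraries carried no molecular identifiers. In T1.1, by contrast, 249 reads stood behind the 71.7 CPM, so counting error was small there. Ordered by count within its own oocyte, FIGLA was between the 32nd and the 4874th gene of the listed oocytes, with a median rank of 300.

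KPNA7 was at 220, 406, 463, 646 and 244 CPM in the same listed T1 oocytes and at 260 CPM in T1.4. In T2.1 it was at 1541 CPM, and in T2.2, T2.3 and T2.4 at 332, 292 and 361 CPM. The listed T3.2 and T3.4 held 204 and 151 CPM, and the unlisted T3.1, T3.3 and T3.5 held 1313, 622 and 553 CPM. Apart from T2.1 and T3.1, KPNA7 stayed between 151 and 646 CPM. Over all listed oocytes its rank lay between 66, in T2.1, and 1340, with a median of 702.

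**Figure D1:**
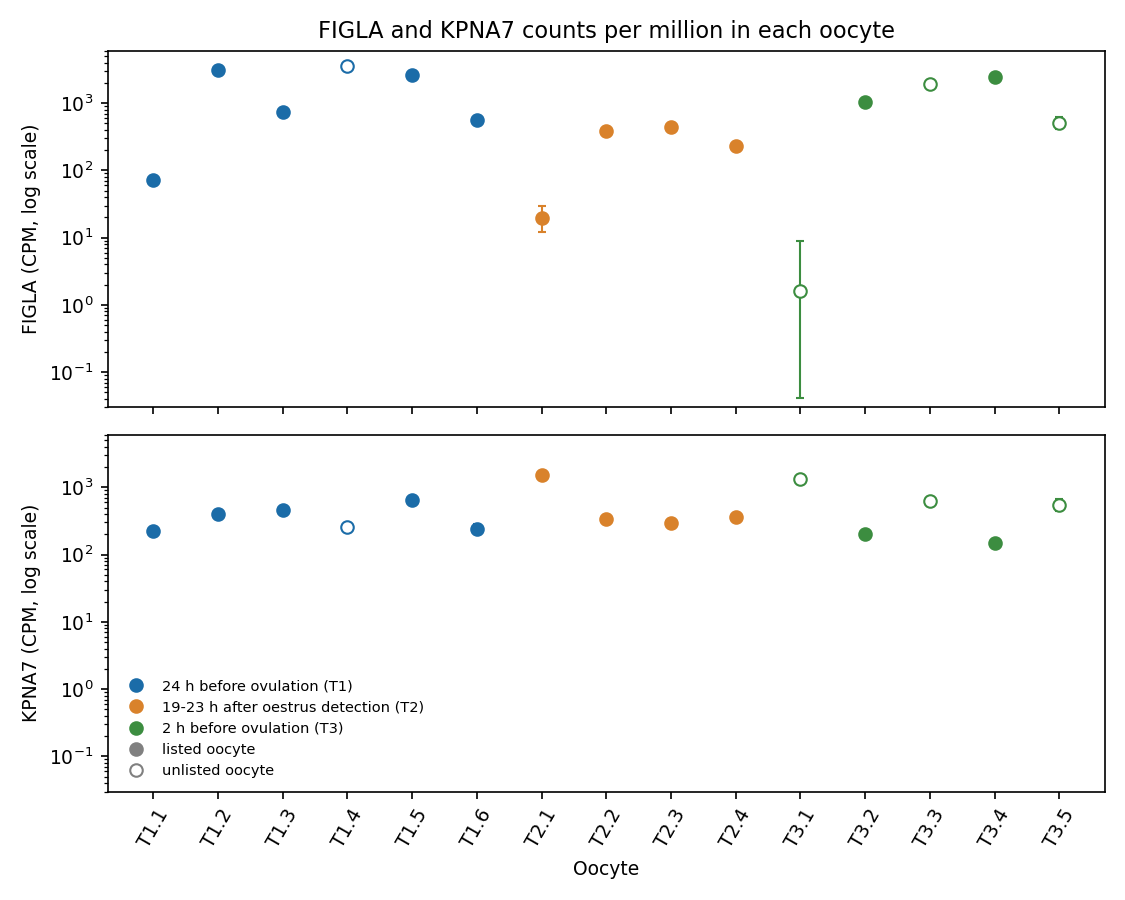
Level of FIGLA and KPNA7 in each of the 15 oocytes in CPM on a log axis, by time point, with filled points for listed and open points for unlisted oocytes. FIGLA reaches 3512 CPM in T1.4 and falls to 1.61 CPM in T3.1, while KPNA7 lies between 151 and 1541 CPM.

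Between T1 and T2, the mean FIGLA level was lower at T2 but the difference did not pass the test, with 7.29 ± 2.07 (SD, n = 4) against 9.56 ± 2.33 (n = 5) on the log2 CPM scale. The edgeR quasi-likelihood test gave a log2 fold change of -2.75 with an SE of 1.01 and a 95% interval from -4.89 to -0.61. Its p was 0.0152, and with Benjamini-Hochberg adjustment over 10198 genes in edgeR the p was 0.260, so FIGLA was not called. A call required an adjusted p under 0.05 together with a log2 fold change beyond 1.5 in either direction, and no gene met both (0.0% of those tested). An unadjusted edgeR p under 0.05 was found for 12.2% of genes, 2.77% higher and 9.41% lower at T2. By unadjusted p FIGLA was the 594th gene of this comparison. Among the alternatives, the likelihood ratio test of edgeR called 361 genes and DESeq2 called 469, but FIGLA itself had an adjusted p of 0.0790 and 0.0552 in these.

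The exact permutation test of the same levels, with a difference of -2.27, gave p = 0.175 (two-sided, n = 5 and 4), where 0.0159 was the smallest p possible. The groups overlapped through T1.1, which lay below all T2 oocytes but T2.1. Of the tested genes 1.94% lay higher and 2.29% lower at T2 without overlap. Without T1.1 the difference was -3.08 with an exact p = 0.0286, the smallest possible with 4 against 4, and without T2.1 it was -1.25 with an exact p = 0.393. The difference moved with the oocyte left out.

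KPNA7 did not pass the test in that comparison. Its edgeR log2 fold change was 0.49 with an SE of 0.56, a 95% interval from -0.70 to 1.68 and an adjusted p of 0.83 in edgeR. The positive sign came from T2.1, since without that oocyte the difference in mean level was -0.27.

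From T2 to T3, the listed oocytes of the 2 genes separated in opposite directions. Both T3 oocytes held more FIGLA than all 4 T2 oocytes, at 10.85 ± 0.86 (SD, n = 2) against 7.29 ± 2.07 (n = 4) log2 CPM. Both held less KPNA7 than all 4 T2 oocytes, at 7.68 ± 0.34 against 8.80 ± 1.12 log2 CPM. With 2 oocytes against 4 such a separation was common, as 16.3% of the tested genes lay higher at T3 without overlap and 18.7% lower.

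The edgeR log2 fold change of FIGLA was 3.00 with an SE of 1.15 and a 95% interval from 0.56 to 5.45, an 8.02-fold difference with an unadjusted p of 0.0191 and an adjusted p of 0.197. For KPNA7 it was -1.49 with an SE of 0.78, an interval from -3.15 to 0.16 and an adjusted p of 0.341 in edgeR. No gene was called here (0.0%), and 17.3% of genes had an unadjusted edgeR p under 0.05, 9.03% higher and 8.24% lower at T3. The edgeR likelihood ratio test called 701 genes and DESeq2 912, and neither called FIGLA, whose adjusted p was 0.0677 and 0.0866. The exact permutation test gave p = 0.133 for both genes, which is the smallest p that 2 against 4 allows. In edgeR the FIGLA value was 2.19 without T3.4 with an unadjusted p of 0.127 and an adjusted p of 0.559, the lone T3 oocyte being assumed to vary like the others. It was 2.50 without T2.1. The KPNA7 value was -0.66 without T2.1 in edgeR.

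The T3 result depended on which oocytes were taken. With all 15 oocytes the FIGLA difference between T3 and T2 was 1.35 on the log2 CPM scale (exact p = 0.524, n = 5 and 4). Without T3.1 it was 3.13 (exact p = 0.0286, unadjusted, n = 4 and 4), the smallest p possible with 4 against 4. Leaving out T3.1 was not planned and removed the lowest FIGLA value, so no conclusion is drawn from that p. The share of all genes that separate in this set was not computed. For KPNA7 the difference was 0.089 with all 15 oocytes (exact p = 0.937) and -0.33 without T3.1 (exact p = 0.657).

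Between T1 and T3, no difference beyond the spread was found for either gene. FIGLA had an edgeR log2 fold change of 0.25 with an SE of 1.13, a 95% interval from -2.15 to 2.66 and an adjusted p of 0.986. The estimate for KPNA7 was -1.01 with an SE of 0.74, an interval from -2.58 to 0.57 and an adjusted p of 0.740 in edgeR. No gene was called (0.0%), and 9.09% of genes had an unadjusted edgeR p under 0.05, 1.62% higher and 7.47% lower at T3. On the log2 CPM scale with TMM factors the 2 time points overlapped for both genes, while 3.8% of genes lay higher and 5.18% lower at T3 without overlap. For KPNA7 the overlap came from T1.6, at 7.54 against 7.92 in T3.2. Scaled by library size alone, KPNA7 did not overlap. The difference was then -1.05 (exact p = 0.0952, the smallest possible with 2 against 5). The share of all genes that separate on that scale was not computed. The intervals are wide enough to hold a 4-fold change of FIGLA in either direction, so the comparison does not show equal levels. With all 15 oocytes the level differences were -1.34 for FIGLA and 0.40 for KPNA7, of the opposite sign to those of the listed oocytes, at 1.29 and -0.84. Without T3.1 they were 0.45 (exact p = 0.762) and -0.016 (exact p = 0.981), so the opposite signs rested on T3.1.

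Tested over the 3 time points together, FIGLA had an edgeR p of 0.0357, adjusted to 0.303, and KPNA7 a p of 0.187, adjusted to 0.542. Of all tested genes 1 was called in that test, or 0.00981%. Adjusted over the 9 exact permutation tests made for FIGLA, KPNA7 and their ratio, the p-values were 0.245, except 0.643 for FIGLA from T1 to T3 and 0.683 for KPNA7 from T1 to T2.

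**Figure D2:**
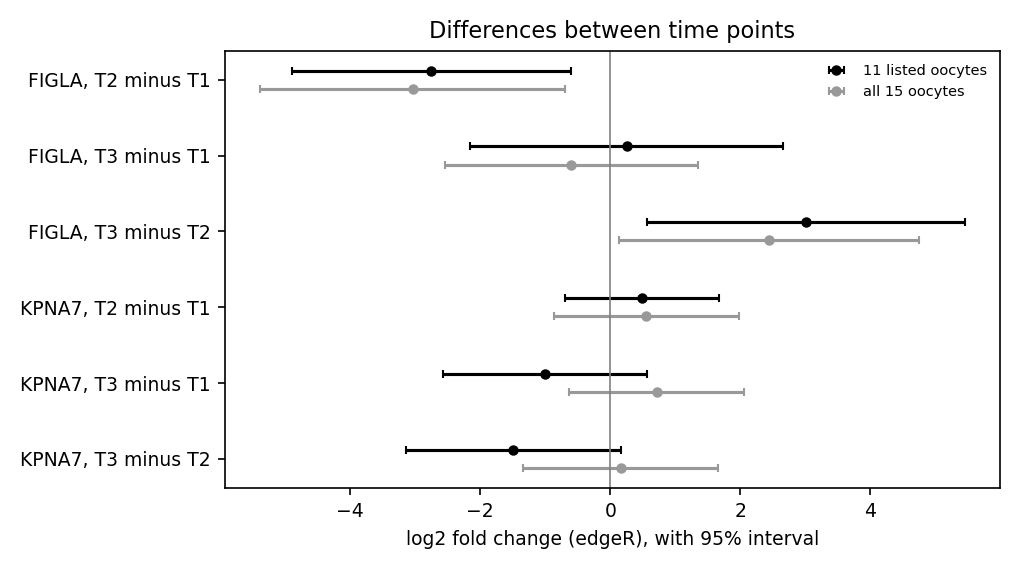
Log2 fold changes of FIGLA and KPNA7 between time points from edgeR with 95% intervals. FIGLA lies at -2.75 for T2 against T1 and 3.00 for T3 against T2, and no adjusted p is under 0.05.

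The spread between oocytes within a time point was larger for FIGLA than for most genes of like average abundance in edgeR. That average is not the mean log2 CPM given as level elsewhere. The biological coefficient of variation of FIGLA was 0.896, above that of 99.6% of the 236 tested genes within 1 log2 CPM of its average abundance. FIGLA itself is counted in the 236, and none of the others lay above it. It was above only 55.3% of all tested genes. KPNA7 had a value of 0.596, above 80.4% of the 904 genes near its own average abundance, itself included, and above 24.1% of all tested genes. The median over all tested genes was 0.834.

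**Figure D3:**
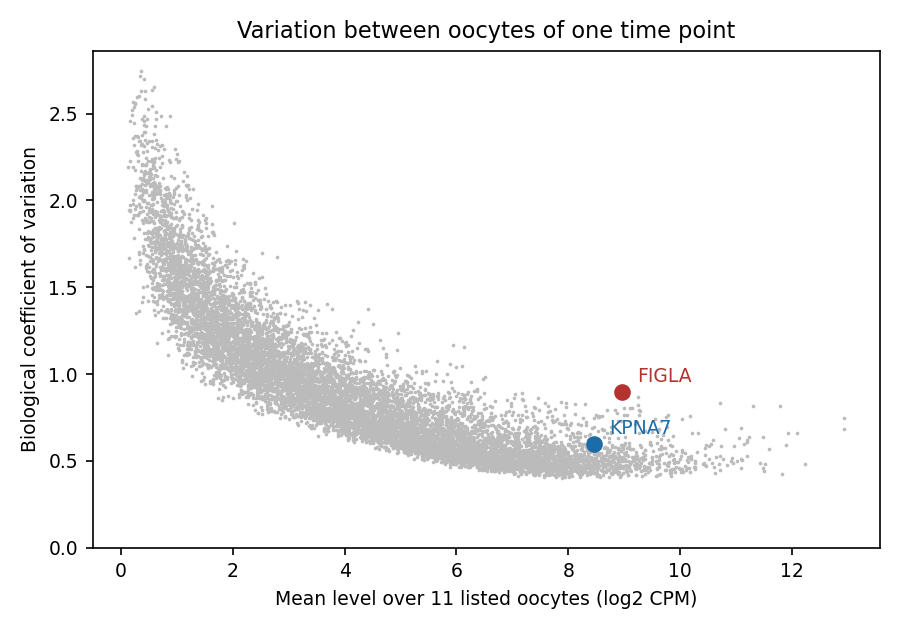
Biological coefficient of variation from edgeR against mean log2 CPM for the tested genes, with FIGLA and KPNA7 marked. FIGLA at 0.896 sits above 99.6% of the genes near it, and KPNA7 at 0.596 above 80.4% of the genes near KPNA7. Nearness is by edgeR's average abundance, which is not the axis shown, and each gene is counted among those near it.

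The number of FIGLA reads per KPNA7 read compares both genes inside 1 oocyte without any scaling of the libraries. A count also depends on the length of the mRNA, so the ratio was compared between oocytes only. At T1 it was 0.326, 7.53, 1.58, 4.10 and 2.32 in T1.1, T1.2, T1.3, T1.5 and T1.6, and 13.5 in T1.4. At T2 it was 0.0127 in T2.1 and 1.16, 1.53 and 0.647 in the others. At T3 it was 5.02 in T3.2, 16.2 in T3.4, 3.05 in T3.3 and 0.918 in T3.5, while T3.1 gave 1 FIGLA read against 815 KPNA7 reads. The 2 listed T3 oocytes lay above every T2 oocyte. This follows from their higher FIGLA and lower KPNA7 and is not a further result. T1.1 and T2.1 were the lowest of the listed oocytes.

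On the log2 scale the ratio was 1.04 ± 1.71 (SD, n = 5) at T1, -1.51 ± 3.19 (n = 4) at T2 and 3.17 ± 1.19 (n = 2) at T3. T3 exceeded T2 by 4.68, or 25.6-fold, with an exact p = 0.133, again the smallest possible. As the levels of both genes had already separated in opposite directions, that p was fixed in advance and adds nothing to theirs. Without T2.1 it was 3.11, and over all oocytes left out in turn it lay between 3.11 and 5.52. The difference of T2 from T1 was -2.55 (exact p = 0.159), and of T3 from T1 2.13 (exact p = 0.190). With all 15 oocytes the T3 and T2 ratios overlapped and the difference was 1.26 (exact p = 0.619), against 3.46 (exact p = 0.0857) without T3.1. From T1 to T3 it was -1.74 with all 15 oocytes and 0.46 without T3.1 (exact p = 0.589 and 0.714).

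**Figure D4:**
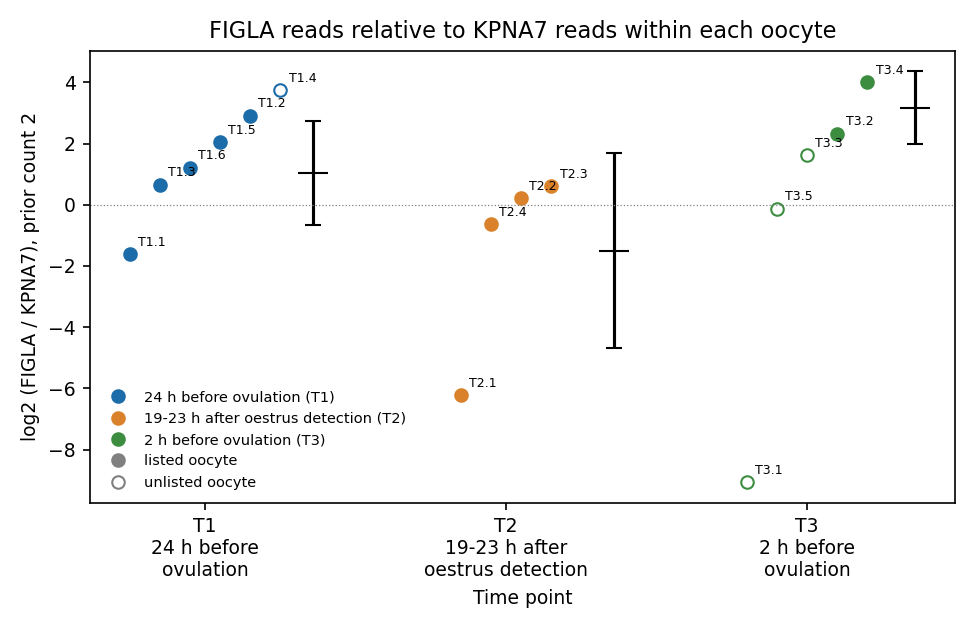
Log2 ratio of FIGLA to KPNA7 in each oocyte with a prior count of 2, by time point, with open points for unlisted oocytes. The log2 ratio runs from -9.07 in T3.1 and -6.22 in T2.1 to 4.01 in T3.4.

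The 4 unlisted oocytes were not alike for FIGLA. T1.4 held the highest FIGLA level of all 15 oocytes and T3.1 the lowest, so that their mean was 8.38 ± 4.82 (SD, n = 4) log2 CPM against 8.92 ± 2.33 (n = 11) in the listed ones, a difference of -0.53 (exact p = 0.743) that became 1.77 (exact p = 0.231) without T3.1. For KPNA7 the unlisted oocytes averaged 9.34 ± 0.94 against 8.42 ± 0.88 log2 CPM, a difference of 0.92 (exact p = 0.107, adjusted over 3 tests 0.321) that became 0.53 (exact p = 0.352) without T3.1. Within T3 alone, 3 unlisted oocytes exceeded the 2 listed ones by 2.06 (exact p = 0.200). After each library was thinned to 175263 counts, the KPNA7 difference was 1.19 with an exact p = 0.0469, unadjusted. Both FIGLA and KPNA7 were still counted at that depth in every listed oocyte, with 3 to 518 FIGLA and 35 to 267 KPNA7 counts.

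Library depth was not clearly related to either level in the listed oocytes. Pearson's r between the log of depth and FIGLA level was 0.521 (permutation p = 0.101, n = 11). Spearman's rho was 0.391 (permutation p = 0.237), and r was 0.338 without T1.6 and T2.1, the 2 oocytes farthest from the median depth. For KPNA7, r was 0.0151 (permutation p = 0.966) and rho 0.218 (permutation p = 0.520), and r was 0.544 without the same oocytes. Over all 15 oocytes r was 0.278 for FIGLA and -0.397 for KPNA7 (permutation p = 0.315 and 0.139). For FIGLA, leaving out T3.5 and T3.3 from the 15 raised r to 0.714 (permutation p = 0.00722, unadjusted). The lowest adjusted p among the 3 relations examined in the listed oocytes was 0.303 for Pearson's r and 0.712 for rho.

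The levels of FIGLA and KPNA7 were not shown to move against each other. Over the listed oocytes r was -0.276 (permutation p = 0.412, n = 11) and rho -0.0636 (permutation p = 0.861). The negative sign rested on T2.1, as r was 0.413 without it and 0.214 without T2.1 and T1.2. With all 15 oocytes r was -0.488 (permutation p = 0.0614), and it was 0.367 without T3.1 and T2.1. The sign of the relation thus depended on these 2 oocytes.

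FIGLA had close followers among the named genes across the listed oocytes. By Pearson's r of log2 CPM over the 11 oocytes, which share their libraries, the most similar named genes were SPC24, a kinetochore component, at 0.968, TMEM88 at 0.958, ATP5MJ at 0.95, TMEM160 at 0.949 and ATP5IF1 at 0.948. ATP5MJ is a small subunit of the ATP synthase and ATP5IF1 its inhibitor. Over all 15 oocytes the same r was 0.851, 0.808, 0.731, 0.916 and 0.939. SPC24 held position 5 among all tested genes, so genes without a symbol lay closer to FIGLA. Among the listed oocytes, each of these named genes had its lowest level in T2.1, as FIGLA did. There ATP5IF1 was at 49.5 CPM and SPC24 was not counted. For these genes no r without T2.1 was computed.

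The named genes most similar to KPNA7 were TADA2B at 0.943, CDK2AP2 at 0.936, CCNQ at 0.924, TTC16 at 0.900 and USB1 at 0.879. TADA2B is a subunit of a histone acetyltransferase complex and CCNQ a cyclin. TADA2B held position 3 among all tested genes, so genes without a symbol lay closer to KPNA7. Among the 11 listed oocytes, all 5 named genes had their highest level in T2.1, as KPNA7 did. No r without T2.1 was computed for them. Over 15 oocytes the r of CDK2AP2 and CCNQ remained at 0.932 and 0.919, while that of TADA2B was 0.709 and of TTC16 0.608. An r above 0.9 was reached by 147 of 10197 other genes for FIGLA and by 11 for KPNA7, of which 27 and 4 could be named. These r values describe 11 oocytes and carry no test.

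The FIGLA level also followed a list of oxidative phosphorylation genes, which encode subunits of the respiratory complexes and of the ATP synthase. Of 17 genes in the list, taken from the study and so not independent of these oocytes, 13 could be named. The r with FIGLA was positive for 13 of 13, from 0.631 to 0.941, with a median of 0.850. Among its most abundant genes r was 0.768 for COX6C, 0.792 for ATP5PO and 0.900 for UQCRQ, subunits of complex IV, the ATP synthase and complex III, and it was 0.850 for both NDUFB8 and NDUFA7 of complex I. With the mean log2 CPM of the 13, FIGLA had an r of 0.885 and a rho of 0.818 over the 11 oocytes, 0.838 without T2.1, 0.845 after the mean of each time point was subtracted and 0.865 over all 15. KPNA7 had an r of -0.215 with the same mean, and 0.309 without T2.1.

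The oocytes with little FIGLA also had little of these transcripts, with 1 exception. The mean of the 13 genes was 4.94 log2 CPM in T2.1 and 10.98 in T1.2, the extremes of FIGLA. In T1.1, however, the mean was 7.75, close to the 7.57 of T1.3 and the 7.36 of T1.6, while FIGLA was at 71.7 CPM there against 731 and 565. The list had a median edgeR log2 fold change of -2.83 from T1 to T2, beside -0.20 for all tested genes, and of 3.86 from T2 to T3, beside -0.10. In each of the 2 comparisons 13 of 13 genes had an unadjusted edgeR p under 0.05, where 12.2% and 17.3% of all tested genes did, and 0 were called, as for all tested genes (0.0%).

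**Figure D5:**
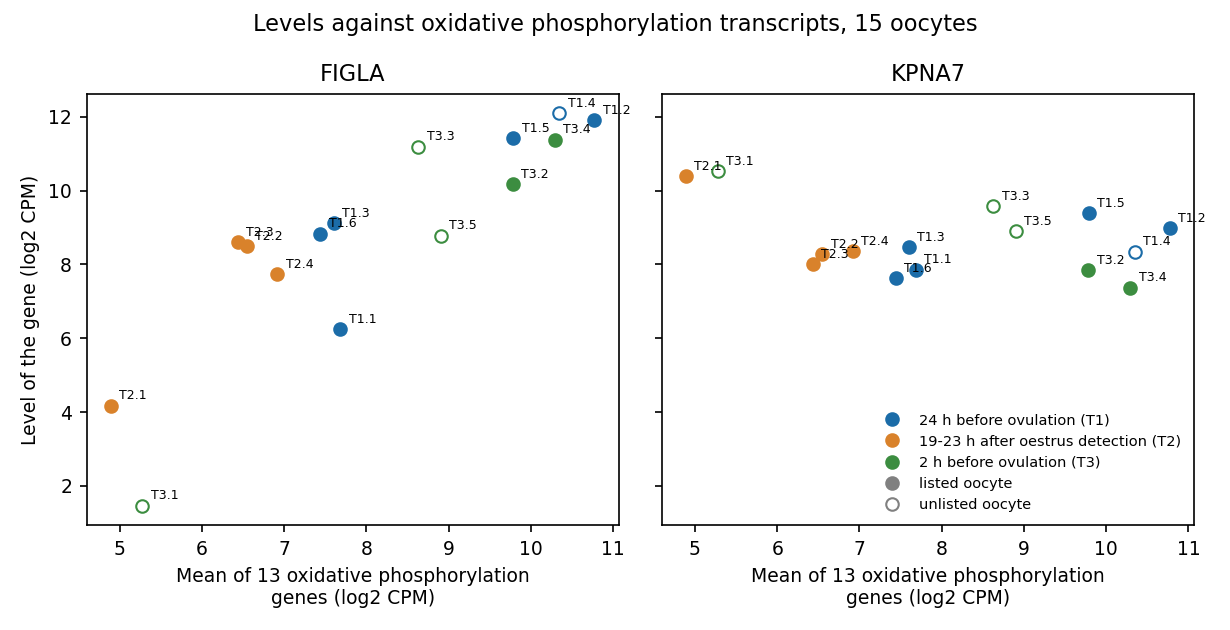
FIGLA and KPNA7 level against the mean log2 CPM of 13 oxidative phosphorylation genes in each oocyte. Levels are scaled over all 15 oocytes. FIGLA is ordered much as the mean, which runs from 4.89 in T2.1 to 10.77 in T1.2, and KPNA7 shows no such order.

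Other transcription factors of the oocyte were examined where the gene list gave a symbol. Of a list of 11 that includes FIGLA, 4 could be named, FIGLA itself with GTF2A1L, NR6A1 and NOBOX. Between any time points 0 of the 4 were called, as for all tested genes (0.0%). GTF2A1L, a germ-cell general transcription factor, was the closest to FIGLA, with an r of 0.752. It was at 336 CPM in T2.1 and at 1526 to 5677 CPM in the other listed oocytes, at 59.6 CPM in T3.1, and its edgeR log2 fold change from T2 to T3 was 1.85 with an adjusted p of 0.225. NR6A1, a germ-cell nuclear receptor, had an r of 0.583 with FIGLA, and NOBOX, an oocyte homeobox factor, 0.186 at no more than 24.9 CPM. The 3 E-protein partners and the 4 zona pellucida genes, the known targets of FIGLA, could not be named from the gene list and were not analysed here.

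Among the named genes that act with KPNA7 in nuclear transport, 0 were called, as for all tested genes (0.0%). KPNA7 was the 1 importin alpha of 7 that could be named, and none of 11 importin beta genes could be. For the export receptor XPO1, r with KPNA7 was -0.455, and for the Ran-cycle genes RCC1 and RANBP1 it was 0.342 and 0.462. Of 28 nucleoporins 5 were named, NUP85, NUP93, AAAS, SEH1L and SEC13, with r values from -0.0138 to 0.786. NUP93 was the nearest to KPNA7 at 0.786, and its edgeR log2 fold change from T2 to T3 was -2.79 with an unadjusted p of 0.013 and an adjusted p of 0.168. For RCC1 the same log2 fold change was -6.95 with an adjusted p of 0.194, on 0 to 35 counts per oocyte. KPNA7 belongs to a family of similar genes, and how reads that match several of them were counted is not given in the sources used here, so its counts may include reads of its relatives.

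Marker genes of the oocyte and of somatic cells were looked up. NLRP5, PATL2 and OOSP2, the 3 of 23 oocyte markers that could be named, were counted in 11 of 11 listed oocytes. Their median levels there were 52.2, 14.4 and 3845 CPM. The somatic markers STAR, SRGN and CSF1R had medians of 201, 74.6 and 13.2 CPM and were also counted in 11 of 11. Being counted therefore does not check the oocyte label. Of 19 cumulus and granulosa markers only STAR could be named, and it was counted in 11 of 11 listed oocytes, at 80.8 to 376 CPM at T1, 188 to 365 at T2 and 54.2 to 111 at T3. Of 13 leukocyte markers SRGN and CSF1R could be named, with summed levels of 57.8 to 1103 CPM at T1, 22.4 to 621 at T2 and 15.7 to 115 at T3. None of 6 erythrocyte markers could be named. The r of STAR was -0.242 with FIGLA and 0.168 with KPNA7, and those of CSF1R and SRGN with FIGLA were 0.0353 and -0.215. Transcripts of these somatic marker genes were therefore counted in these libraries. Whether they came from somatic cells or from the oocyte was not tested, and neither was their part in the results.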

How the data were processed

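Smart-seq2 libraries of 15 single DF oocytes were sequenced as single-end reads of 75 bp. Reads were trimmed by the authors in Trim Galore (version 0.6.6 per the submitters' processing notes) and aligned with HISAT2 against the ARS-UCD1.2 assembly. Raw counts for each Ensembl gene, made in SeqMonk, were deposited by the authors. Not given in the sources used here are the annotation release, the strand setting and any removal of duplicates. Each of the 15 columns was assigned to its sample through its name.

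The quasi-likelihood F-test of edgeR (version 4.0.16, under R 4.3.3) was run on the deposited counts with TMM factors, filterByExpr and Benjamini-Hochberg adjustment, in 1 fit of the 3 time points. Levels are log2 CPM with a prior count of 2. Single values used exact two-sided permutation tests, and correlations 100000 resamples, using scipy 1.17.1 and numpy 2.4.6 under Python 3.11.15. The procedure was tested on simulated data. Alternatives were DESeq2 (version 1.42.0), the likelihood ratio test, RLE factors, library size alone, other prior counts, no filter, no fold threshold, thinned counts, ranks, all 15 oocytes, a replicate block and each oocyte left out. Replicates are separate animals from 2 trials, and the trial of each oocyte was not given, so it could not be used as a batch.

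Gene symbols came from the gene list of the study, which names 1741 genes. FIGLA, KPNA7 and the lists were chosen with earlier results of these data known. Genes of lists were all named where at most 6 had a symbol, and otherwise the 3 of highest mean level and the 3 of smallest p over the 3 time points. Those most like a member were the 5 named genes of highest r. The comparison of the 11 listed oocytes with all 15 followed from the quality control of the study. Some list members are not reported here because no symbol was given.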

Additional observations from a re-analysis of the deposited data

Results flagged for a closer look

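A value far from the others was looked for in 12 combinations of a measure with a set of 4 or more oocytes of a time point. Of these, 2 held one, and chance gives about 1 in 20 for each. The combinations share oocytes, and the ratio is built from both levels, so they are not independent. FIGLA in T3.1 was the lowest of the 5 T3 oocytes, with a gap to the next of 0.738 of the whole range on the log2 CPM scale. That value rested on 1 count, and T3.1 is an unlisted oocyte. KPNA7 in T2.1 was the highest of the 4 T2 oocytes, with a gap of 0.859 of the range, on 1651 counts. FIGLA in T2.1 was the lowest of the same 4 oocytes.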

How the results depend on the processing

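FIGLA and KPNA7 were called in no alternative, and FIGLA kept its direction from T1 to T2 and from T2 to T3 in all of them. With all 15 oocytes the level differences turned to -1.34 for FIGLA and 0.40 for KPNA7 from T1 to T3, to 0.089 for KPNA7 from T2 to T3 and to -1.74 for the ratio from T1 to T3, and the edgeR log2 fold changes to -0.60 for FIGLA and 0.71 for KPNA7 from T1 to T3 and 0.16 for KPNA7 from T2 to T3. Without T3.1 the 4 level differences were 0.45, -0.016, -0.33 and 0.46, back in the direction of the listed oocytes. The edgeR values were not recomputed without T3.1. Leaving out each oocyte in turn gave -3.08 to -1.25 for the FIGLA level from T1 to T2, -3.26 to -0.98 for the ratio and -0.27 to 0.53 for KPNA7, with the lowest KPNA7 value without T2.1. In edgeR it gave -0.39 to 1.06 for FIGLA from T1 to T3, negative without T1.1 (-0.06) and T3.4 (-0.39), and -0.31 to 0.77 for KPNA7 from T1 to T2. A lone T3 oocyte was then assumed to vary like the others. Without T1.1 the exact p for FIGLA and for the ratio (-3.21) was 0.0286. With all 15 oocytes but T3.1, an unplanned choice that dropped the lowest FIGLA value, FIGLA from T2 to T3 was 3.13. Its exact p of 0.0286 was the smallest possible.

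Unlisted minus listed, FIGLA was 0.12 on thinned counts and -1.77 to 1.77 without each unlisted oocyte, the ratio -3.03 to 1.24, both positive without T3.1, and KPNA7 1.19 on thinned counts. The r of KPNA7 with depth was -0.397 over 15 oocytes and -0.170 with library size alone, and the r of FIGLA with KPNA7 was 0.214 without 2 oocytes and 0.413 without T2.1, chosen after seeing the data. Counts of called genes, 0 in edgeR, were 361, 139 and 701 for T2 against T1, T3 against T1 and T3 against T2 with the likelihood ratio test, 469, 349 and 912 with DESeq2, and 234, 1 and 371 without a filter, with 17 for T3 against T2 with RLE. Leaving out oocytes gave 0 to 376, 0 to 15 and 0 to 403 calls, highest without T1.1, T1.2 and T1.2. The cause was not tested. In the replicate block FIGLA from T1 to T3 was -0.21 and 1 gene was called from T2 to T3. The numbers name different animals, and of 6 same-numbered pairs 1 had a correlation of deviations over 0.1 (-0.0164 to 0.140), so they do not pair the oocytes. The 2 listed T3 oocytes and single-cell depth limit what could be detected.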

Other observations

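Cytosolic ribosomal protein genes, which encode the protein part of the ribosome, also went with FIGLA across the 11 listed oocytes. The 28 that could be named are those in the gene list of the study, so the list is not independent of these oocytes. Pearson's r of log2 CPM with FIGLA was positive for 27 of 28 of them, from -0.128 to 0.895 with a median of 0.804. It was 0.736, 0.787 and 0.762 for RPS27A, RPL21 and RPL19, the most abundant, and 0.820, 0.861 and 0.686 for RPLP1, RPS7 and RPS26, while the median r with KPNA7 was -0.0654. Over all 10197 other genes the median r was -0.0584 with FIGLA and 0.0146 with KPNA7. These values describe the same oocytes, libraries and scaling as those of the report, and no test was made of them.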
